A study of Mus musculus with 6 samples.

Results

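The complement genes described here are C3, C4b, Cfb, C1ra, C1s1, Serping1 and Cd59a, chosen by gene symbol from a proposed list of 8, and they are 7 of the 13283 genes in the table. Cd55, the other gene proposed, was not analysed here. RNA-seq covered 3 libraries of MICT1 KO cells and 3 libraries of control cells that carried scrambled sgRNA (Scr), and the comparison addresses how loss of MICT1, a microprotein of brown adipocytes, changes gene expression. All 6 cultures were of an immortalized line of mouse brown preadipocytes (BAT cells) that expresses Cas9, were put through adipogenic differentiation and received 10 µM forskolin, an activator of adenylyl cyclase, for 6 h on day 6. The Scr cells are labelled WT and the MICT1 KO cells MICT1-CRISPR KO. MICT1 KO cells were pools sorted for a lentiviral GFP and made with different sgRNAs, and the labels do not tell which pool gave which library. No unstimulated cells were sequenced, so every value below is from forskolin-treated cells. The transcript of MICT1 was not analysed here, and the KO label thus has no check on the targeted gene.

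Complement is a chain of plasma proteins that tag and lyse targets. In the classical pathway the proteases C1r and C1s, held in the C1 complex, cleave C4 and C2, and the resulting convertase cleaves C3, the step at which all the pathways meet. The alternative pathway builds its convertase from C3b and factor B, which is activated by factor D, the protease known in fat as adipsin. C1 inhibitor stops C1r and C1s in the fluid phase, while CD55 and CD59 protect the cell's own membrane from the convertases and from the membrane attack complex. Liver makes most of the plasma proteins, and adipocytes and fibroblasts also make several of them.

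The members did not move in one direction. The protease genes C1ra and C1s1 rose 2.43-fold and 2.41-fold in MICT1 KO cells, and C3 and C4b, their more downstream partners, fell by 27.0% and 49.0%. Among the regulators, Cd59a was lower and Serping1 higher, both at low levels. Cfb, a component, did not pass the test. In all, 3 members were higher and 3 lower by limma-trend at an adjusted p under 0.05, and 1 did not pass. Across all 12507 genes tested, 56.9% passed at this threshold, 28.5% higher and 28.3% lower in MICT1 KO, so a gene passing is common in this comparison. The median log2 fold change was -0.45 over the 7 members and -0.0053 over all genes tested. That of the members is the value of C3 alone, the middle of genes that moved both ways, and does not show a shared shift. In 6 of the 7 members the MICT1 KO values did not overlap the Scr values, as in 62% of all genes tested. A change of at least 2-fold on the log2 scale with an adjusted p under 0.05 was reached by 4 members, against 13.7% of all genes. All 7 passed the filter on low values, which asked for 10 or more in 3 or more libraries.

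**Figure D1:**
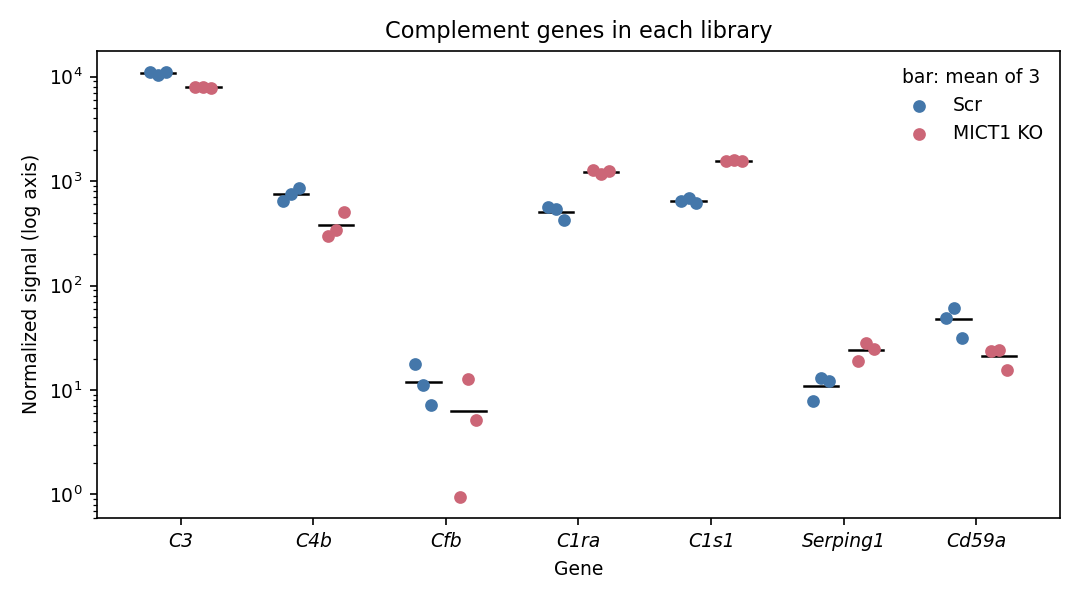
Normalized signal (log axis) of the 7 complement genes in each of the 6 libraries, with Scr in blue, MICT1 KO in red and a black bar at the mean of 3 libraries. C1ra and C1s1 sit higher and C3 and C4b lower in all MICT1 KO libraries, while the points of Cfb overlap.

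C3 encodes the central component, whose cleavage yields the opsonin C3b and the anaphylatoxin C3a. It lies on the minus strand of chromosome 17 from 57203967 to 57228136 (GRCm38). Its normalized signal, that is, reads estimated by the authors and scaled by a size factor for the library, was 11093.7, 10458.3 and 11094.8 in the Scr libraries. In the MICT1 KO libraries it was 8038.7, 7927.5 and 7857.1. Every MICT1 KO value was below every Scr value, and the spread within the MICT1 KO group was small. The means were 10882.3 ± 367 and 7941.1 ± 91.6 (SD, n = 3 each), log2 fold change -0.45 ± 0.051 (SE, limma-trend adjusted p = 1.62e-07) on the scale of log2(value + 1). Its 95% interval ran from -0.56 to -0.35, which does not reach a 2-fold fall. Among all tested genes, the profiles nearest to that of C3 over the 6 libraries were those of Palb2, Ndufb3 and Pus7, with root mean square differences of 0.020, 0.027 and 0.027 on the log2 scale after each gene was centred on its Scr mean. Their log2 fold changes were -0.44, -0.47 and -0.44, close to that of C3, which follows from how they were chosen. Shared regulation was not tested.

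C4b encodes the fourth component, the substrate of C1s and a relative of C3. It lies on the minus strand of chromosome 17 from 34728139 to 34743902 (GRCm38). Its normalized signal was 647, 755 and 858 in Scr, against 299, 342 and 512 in MICT1 KO libraries. The groups did not overlap, although KO replicate 3 stood closer to the Scr libraries than the other two did. C4b fell from a mean of 753 ± 105 to one of 384 ± 112 (SD, n = 3 each), log2 fold change -0.999 ± 0.15 (SE, limma-trend adjusted p = 5.68e-06). Its near copy C4a lies 65189 bases away on the same strand, and the reads of both genes were fractional in all 6 libraries. Summed over the pair they came to 692, 853 and 873 reads in Scr, against 346, 356 and 509 in MICT1 KO libraries, whole numbers within a tolerance of 0.06, as when reads are shared out between the copies. The sum of the pair fell by 0.96 on the log2 scale (limma-trend adjusted p = 3.13e-06), so the fall of the pair does not depend on how reads were split. How that fall divides between C4b and C4a does depend on it.

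Cfb encodes factor B, the protease of the alternative pathway convertase. It lies 87 bases from C2 on chromosome 17, from 34856374 to 34862514 (GRCm38, minus strand). Its values were 17.8, 11.1 and 7.12 in Scr, against 0.953, 12.6 and 5.18 in MICT1 KO libraries, which overlap. These are between 1 and 18 reads per library. Its log2 fold change was -1.16 with a 95% interval from -2.67 to 0.34 (limma-trend adjusted p = 0.180), so a change was not detectable at this depth and the interval holds a large fall as well as a small rise. Without KO replicate 1, the library with 1 read, the log2 fold change was -0.42 (limma-trend adjusted p = 0.617).

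C1ra and C1s1 encode C1r and C1s, the proteases that open the classical pathway. They lie near each other on chromosome 6 with their ends facing, C1ra on the plus strand from 124512621 to 124523440 and C1s1 on the minus strand from 124530344 to 124542392 (GRCm38), 6903 bases apart. The normalized signal of C1ra was 563, 536 and 421 in Scr, against 1279.8, 1163 and 1246.4 in MICT1 KO libraries. That of C1s1 was 640, 691 and 620 in Scr, against 1561.1, 1587.1 and 1554.3 in MICT1 KO libraries. For both genes the lowest MICT1 KO value was well above the highest Scr value. C1ra rose from a mean of 507 ± 75.3 to one of 1229.7 ± 60.2 (SD, n = 3 each), log2 fold change 1.29 ± 0.096 (SE, limma-trend adjusted p = 3.26e-10). C1s1 rose from a mean of 650.4 ± 36.5 to one of 1567.5 ± 17.3 (SD, n = 3 each), log2 fold change 1.27 ± 0.072 (SE, limma-trend adjusted p = 3.62e-12).

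The estimated reads of C1s1 and of its near copy C1s2 were fractional in all 6 libraries and added up to whole reads. C1s2, at 124624625 to 124636085 on chromosome 6, rose by a similar amount (log2 fold change 1.21, 95% interval 0.79 to 1.63, limma-trend adjusted p = 2.98e-05), and the sum of the pair had a log2 fold change of 1.26 (adjusted p = 2.28e-12). Fractional reads were also found for C1ra in 5 of 6 libraries, and its near copy C1rb was not analysed here, so the values of C1ra may hold a share of reads from that gene. Their neighbour C1rl, which encodes a C1r-like protease and ends 1977 bases before C1ra, had values from 77.9 to 92.0 in Scr and from 76.7 to 110 in MICT1 KO libraries (log2 fold change 0.099, limma-trend adjusted p = 0.716).

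Serping1 encodes C1 inhibitor, the serpin that inactivates C1r and C1s, and lies on the minus strand of chromosome 2 from 84765360 to 84775444 (GRCm38). It was measured from 8 to 27 reads per library, with normalized values of 7.91, 13.0 and 12.2 in Scr, against 19.1, 28.4 and 24.9 in MICT1 KO libraries. The groups did not overlap. The means were 11.0 ± 2.73 (SD, n = 3) and 24.1 ± 4.73 (SD, n = 3), 2.19-fold higher in MICT1 KO, with log2 fold change 1.07 ± 0.44 (SE, limma-trend adjusted p = 0.0454). This call rests on each of the libraries: with any of the 6 left out the adjusted p lay between 0.0506 and 0.144 (limma-trend), at log2 fold changes from 0.87 to 1.23.

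Cd59a encodes a GPI-anchored inhibitor of the membrane attack complex and lies on the plus strand of chromosome 2 from 104095753 to 104115410 (GRCm38). Its values were 49.5, 61.2 and 31.5 in Scr, against 23.8, 24.2 and 15.5 in MICT1 KO libraries, from 15 to 66 reads. The MICT1 KO values were all below the lowest Scr value, that of control replicate 3. Cd59a fell from a mean of 47.4 ± 14.9 to one of 21.2 ± 4.90 (SD, n = 3 each), log2 fold change -1.10 ± 0.35 (SE, limma-trend adjusted p = 0.0119). Without control replicate 2 its log2 fold change was -0.89 and the adjusted p 0.0810 (limma-trend).

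**Figure D2:**
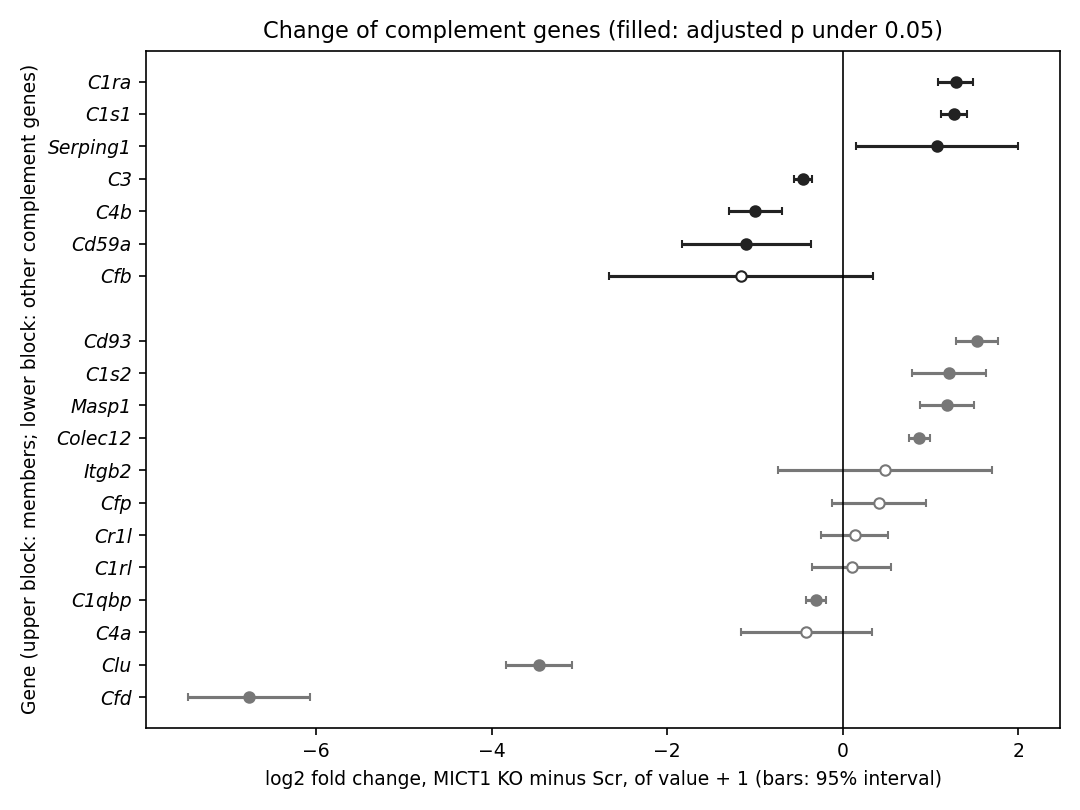
Log2 fold change of value + 1 between MICT1 KO and Scr (horizontal axis, MICT1 KO minus Scr, with 95% intervals) for the 7 members in the upper block and 12 other complement genes in the lower block, with filled points for an adjusted p under 0.05. C1ra and C1s1 lie near 1.3 with narrow intervals, that of Cfb crosses 0, and Cfd lies farthest to the left.

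Per length of transcript, C3 was by far the most abundant member. RPKM, the signal scaled to exon length and to the total of the library, was 129 ± 6.12 (SD, n = 3) for C3 in Scr, followed by C1s1 at 12.7 ± 0.60, C1ra at 10.4 ± 1.60, C4b at 8.07 ± 1.07, Cd59a at 1.60 ± 0.49, Serping1 at 0.289 ± 0.068 and Cfb at 0.261 ± 0.12. In that order the ranges of mean ± SD overlapped for C1ra and C4b, and for Serping1 and Cfb. In MICT1 KO cells the RPKM was 94.6 ± 0.54 (SD, n = 3) for C3, 30.7 ± 0.42 for C1s1, 25.3 ± 1.14 for C1ra, 4.14 ± 1.23 for C4b, 0.717 ± 0.16 for Cd59a, 0.636 ± 0.13 for Serping1 and 0.136 ± 0.13 for Cfb. There these ranges overlapped for Cd59a and Serping1, and no longer for C1ra and C4b. By RPKM, C3 stood at rank 276 of 12937 genes in Scr and at rank 449 in MICT1 KO, whereas C1s1 went from rank 4158 to rank 1730 and C1ra from rank 4758 to rank 2172.

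Balances between members were compared as RPKM ratios within each library, 6 measures in all, by two-sided exact permutation tests that cannot give a p below 0.1 with 3 libraries against 3. The ratio of C3 to C1s1 was 10.5, 9.21 and 10.9 in Scr, against 3.13, 3.04 and 3.08 in MICT1 KO libraries (exact p = 0.1, 0.2 after Benjamini-Hochberg adjustment). Since C3 was lower and C1s1 higher in every MICT1 KO library, this ratio had to separate the groups. Its p thus adds nothing to the tests of C3 and C1s1. C3 made up 79.5% ± 1.44 of the summed RPKM of the 7 genes in Scr, against 60.6% ± 0.64 in MICT1 KO (SD, n = 3 each). The share of C1ra and C1s1 together went from 14.2% ± 1.36 (SD, n = 3) to 35.8% ± 0.35 (SD, n = 3), and for both shares the groups did not overlap and the exact p was 0.1 (adjusted 0.2). Both shares restate the opposite moves of C3, C1ra and C1s1 and are not further evidence. The ratio of C3 to C4b was 16.2 ± 2.45 in Scr against 24.2 ± 6.53 in MICT1 KO (SD, n = 3 each), with overlapping groups and an exact p of 0.2 (adjusted 0.3).

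The ratio of the proteases to each other overlapped between the groups. The ratio of C1s1 to C1ra was 1.08, 1.23 and 1.40 in Scr, against 1.16, 1.30 and 1.19 in MICT1 KO libraries, above 1 in all 6 (exact p = 0.9). With 3 libraries against 3 this does not show that their proportion was the same. Serping1, as the inhibitor, stood at 0.0087, 0.014 and 0.015 of the sum of C1ra and C1s1 in Scr, against 0.0088, 0.014 and 0.012 in MICT1 KO libraries. These overlap, with means of 0.0127 ± 0.0036 (SD, n = 3) and 0.0114 ± 0.0024 (SD, n = 3) and an exact p of 0.6 (adjusted 0.72). With so few reads of Serping1 the ratio is imprecise, and a p above the threshold does not show that the balance was the same.

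**Figure D3:**
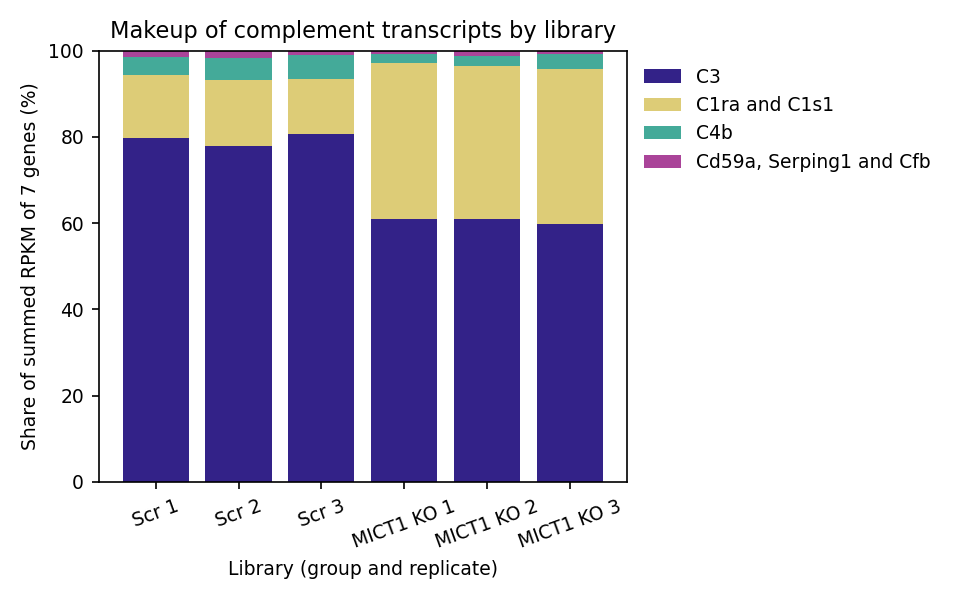
Share of the summed RPKM of the 7 genes (%, vertical axis) taken by C3, by C1ra with C1s1, by C4b and by the 3 remaining genes in each of the 6 libraries. C3 takes 77.9% to 80.7% in Scr and 59.8% to 61.0% in MICT1 KO libraries, and C1ra with C1s1 takes the larger part of the remainder.

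Promoter sequence is shown for C3, the most abundant member, for C1s1, a member that rose, and for Cd59a, a member that fell, as the RefSeq (GRCm38) bases just before the transcription start. The promoter table had entries for C3, C1ra, C1s1 and Cd59a among the 7 genes. Capitals mark matches to motifs searched on both strands, C/EBP sites (TTGCNNAA), interferon-stimulated response elements (GAAANNGAA), gamma-activated sequences (TTCNNNGAA), cAMP response elements (TGACGTNA) and kappa B sites (GGANTTNCC), and on the forward strand the TATA box (TATAAA), and no matches overlapped. The lines give chr17:57228137-57228386 (minus strand) for C3, chr6:124542360-124542609 (minus strand) for C1s1 and chr2:104095551-104095800 (plus strand) for Cd59a.
C3: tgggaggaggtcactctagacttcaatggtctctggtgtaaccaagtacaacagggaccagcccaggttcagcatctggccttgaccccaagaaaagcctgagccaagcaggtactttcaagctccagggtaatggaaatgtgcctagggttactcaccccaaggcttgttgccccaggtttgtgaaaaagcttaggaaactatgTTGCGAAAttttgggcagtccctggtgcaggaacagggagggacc
C1s1: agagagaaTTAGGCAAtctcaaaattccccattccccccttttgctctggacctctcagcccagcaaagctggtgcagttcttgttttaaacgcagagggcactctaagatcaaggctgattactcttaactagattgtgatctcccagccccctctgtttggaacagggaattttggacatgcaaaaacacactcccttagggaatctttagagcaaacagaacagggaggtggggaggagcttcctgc
Cd59a: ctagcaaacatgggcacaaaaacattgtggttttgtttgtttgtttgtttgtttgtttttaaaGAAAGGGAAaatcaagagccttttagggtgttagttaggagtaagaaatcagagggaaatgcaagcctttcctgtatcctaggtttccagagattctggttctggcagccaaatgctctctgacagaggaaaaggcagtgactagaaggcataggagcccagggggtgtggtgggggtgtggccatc
C3 held a match to the C/EBP motif from 45 to 38 bases before its start, and C1s1 held one from 242 to 235 bases before the more upstream of its starts. That start lies inside the span of C1s1 given above. The promoter table also gives a start of C1s1 further downstream, whose 250 bases (124542322 to 124542571) held no match. Such a match is present in 9.56% of the 32851 promoters of the same length. Cd59a held a match to the interferon-stimulated response element from 187 to 179 bases before the start in the promoter table, which lies inside the span of the gene given above, as do 7.13% of promoters. No match to the other motifs was found in these 250 bases, and C1ra had none of any motif, which says nothing of sites elsewhere. A match is a run of letters and not evidence of binding.

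Of 47 other genes of the pathway, 13 had a row in the table and 12 were tested. By limma-trend 4 were higher and 3 lower at an adjusted p under 0.05, 58.3% against 56.9% of all genes, and the median log2 fold change was 0.27. On the initiating side, the lectin pathway protease gene Masp1 rose (log2 fold change 1.18, adjusted p = 7.74e-07), as did Colec12, a scavenger receptor with a collectin domain (0.87, adjusted p = 4.07e-11), and C1s2 as given above. Of 17 classical and lectin genes 3 were higher and 0 lower, with 5 tested (at an unadjusted p under 0.05 also 0 lower). Over all genes tested 28.5% were higher and 28.3% lower, and so few genes do not show a shared direction. C1s2 is among the 3, and its reads may be shared with the member C1s1, so it may not be a separate observation. C1qa, C1qb, C1qc and C2, which encode the recognition part of C1 and the partner of C4, were not analysed here, nor were any of the 7 genes of the terminal pathway. Cd93, a receptor once linked to C1q, rose (1.53, adjusted p = 3.11e-10), and C1qbp, which encodes a mitochondrial protein that binds C1q, fell by 0.30 on the log2 scale (limma-trend adjusted p = 6.48e-05).

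The largest changes of the pathway lay in Cfd and Clu. Cfd, the gene of adipsin that activates factor B, had normalized values of 786, 616 and 718 in Scr, against 2.86, 4.21 and 12.4 in MICT1 KO libraries, a fall of 99.1% (log2 fold change -6.77 ± 0.33 SE, limma-trend adjusted p = 3.41e-13). Clu, which encodes clusterin, an inhibitor of the terminal complex, fell from a mean of 406 ± 34.6 to one of 36.0 ± 4.78 (SD, n = 3 each), or by 91.1% (log2 fold change -3.46, limma-trend adjusted p = 9.41e-13). Set beside Cfd, the fall of C3 in the same libraries was small. C1rl, C4a, Cfp, Cr1l and Itgb2 did not pass.

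A list of 20 factors, cytokines and receptors known to act on the transcription of complement genes had 17 genes tested, 8 higher and 7 lower (adjusted p under 0.05, limma-trend), that is 88.2% against 56.9% of all genes. Among genes with a maximum RPKM of at least 4, 5399 of 8379 passed. The list was chosen with earlier results of these data known, so its share does not show an enrichment. The median log2 fold change of the list was -0.10. Il6, the gene of the acute-phase cytokine, rose from a mean of 223 ± 51.2 to one of 7111.8 ± 640.3 (SD, n = 3 each), log2 fold change 5.02 (limma-trend adjusted p = 2.06e-18). Its receptor chains Il6ra and Il6st fell by 0.46 and 0.49 on the log2 scale, and Stat3, the factor downstream of them, fell by 0.69. The C/EBP factor genes moved in opposite directions, Cebpd up by 1.40 and Cebpb with a log2 fold change of -0.45 (adjusted p = 3.82e-13 and 4.42e-07 from limma-trend). Among the other abundant genes of the list, Tnfrsf1a and Nr3c1 were lower and Nfkb1, Rela, Ifngr2 and Il1r1 higher, and Stat2 and Irf9 also rose, while Ifngr1 and Irf1 did not pass. C3 and these genes were measured in the same libraries, and no relation between them was tested.

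Markers of differentiation differed between the groups. All 9 brown adipocyte markers were lower in MICT1 KO cells at an adjusted p under 0.05 (limma-trend), against 28.3% of all genes tested. Their summed level was 7107 to 8520 CPM in Scr and 850 to 1239 CPM in MICT1 KO libraries. Of 8 preadipocyte and fibroblast markers 7 had a row and 6 were tested. At the same threshold 3 were higher and 2 lower, against 28.5% and 28.3% of all genes tested. The 7 had a summed level of 2227 to 2593 CPM in Scr and 3061 to 3255 CPM in MICT1 KO. Most of the sum is collagen RNA of Col1a1 and Col3a1. Col1a1 rose from a mean of 17955.2 to one of 30595 in normalized signal (log2 fold change 0.77, limma-trend adjusted p = 7.05e-10). Col3a1 had means of 16430 in Scr and 15855 in MICT1 KO, with overlapping groups (log2 fold change -0.047, limma-trend adjusted p = 0.572). Dlk1, a marker of preadipocytes, fell from a mean of 687 to one of 63.9 (log2 fold change -3.47, limma-trend adjusted p = 1.52e-12), so members of this list moved in both directions. In these bulk samples, fewer cells of a type and less RNA per cell cannot be told apart, and the part of differentiation in the changes of C3, C4b, C1ra and C1s1 was not tested. Of 8 macrophage markers, Cd68, Csf1r, Mrc1 and Cd14 had a row, and the defining genes Adgre1, Ptprc, Lyz2 and Itgam did not. Why rows are missing is not given. A missing row here and below does not show that a gene was absent from all libraries. The summed level of the macrophage markers was 16.6 to 23.1 CPM in Scr and 31.8 to 39.2 CPM in MICT1 KO, where Cd14, a gene of many cell types, was the marker that rose. The endothelial list had 1 of 4 genes, Cdh5, at 0.37 to 0.73 CPM in Scr and 1.59 to 2.03 CPM in MICT1 KO, and none of the 3 hepatocyte markers had a row. Their part in the results was not tested.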

How the data were processed

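RNA-seq of 3 Scr and 3 MICT1 KO cultures was used. Total reads recovered from the values were 15445812 to 17925629 per library, and Pearson correlations across genes of log2(value + 1) ranged from 0.987 to 0.990 within groups and from 0.929 to 0.940 between them. The authors aligned reads to NCBI38/mm10 with Partek software, and the submitters' notes also name STAR and DESeq2. The values they deposited are a normalized signal per gene. About 9 in 10 values under 1000 (89.1% to 89.6%) were whole reads divided by a size factor, within 0.02 reads. Since the rest were fractional, no count test was run. The counting model and annotation are not given in the sources used here, and all values in the table are above 0.

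The comparison used limma-trend (limma 3.58.1, R 4.3.3) on log2(value + 1) for the 12507 genes that had 10 or more in 3 or more libraries, with Benjamini-Hochberg adjustment over all of them. The fit was tested on simulated data. Fold changes on this scale are understated for low genes. RPKM used the sum of values per library and exon lengths of GENCODE vM21, found for 12937 genes (97.4%). Positions and promoters are from RefSeq on GRCm38. The members and lists were chosen with earlier results of these data known. Named were all members, genes of the pathway and inducer lists that changed at least 2-fold with an adjusted p under 0.05 or had a mean RPKM of at least 10, and the 3 profiles nearest to C3. Other list genes in the text were named after their values were seen. A gene of the inducer list that enters its counts is not reported here by name. Nothing says that cultures of a group were grown independently beyond the statement that replicates are biological, so p covers the spread between these cultures. Alternatives were other scalings, pseudocounts of 0.5 and 5, other filters, a replicate block and each library left out. Summing near-identical gene copies was chosen after seeing the data. Of the balances between members, only the ratio of Serping1 to C1ra with C1s1 was planned.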

Additional observations from a re-analysis of the deposited data

How the results depend on the processing

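C3, C4b, C1ra and C1s1 kept their direction and passed the threshold in all alternatives, 13 for C3 and C1ra and 14 for C4b and C1s1, where the sum with the near copy was added. Serping1 passed in 5 of 12. With the replicate number as a block its log2 fold change stayed at 1.07 with an adjusted p of 0.0528 (limma-trend), and with a library left out it ranged from 0.87 to 1.23. Deviations of same-numbered libraries correlated at -0.024, -0.016 and 0.064, and those of differently numbered ones at -0.043 to 0.056. Such small values cannot settle whether the numbers pair the samples. The block changed no other member's call, with 7055 calls over all genes against 7113. Without a library the log2 fold change of Cd59a ranged from -1.36 to -0.89. Cfb passed in none of 9 alternatives (adjusted p from 0.142 to 0.617 by limma-trend). With a maximum RPKM of at least 4, Cfb, Serping1 and Cd59a were not tested and 2 other pathway genes in place of 4 were higher. The difference in the ratio of Serping1 to C1ra with C1s1 was -0.0013 and between -0.0033 and 9.57e-05 without a library. Directions of genes that did not pass changed for C1rl (-0.049 without KO replicate 1, up to 0.21) and Cr1l (-0.067 without control replicate 2, up to 0.31), and Cfp and Ifngr1 passed without KO replicate 1 and KO replicate 3 (log2 fold changes of 0.69 and -0.20). Depth limits Cfb, Serping1 and Cd59a, with at most 18, 27 and 66 reads per library.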
